A study of Mus musculus with 14 samples.

Results

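Wild-type mouse hearts at 15 months of age were compared with wild-type hearts at 2 months, over all genes of the count table. The members were chosen by their labels alone: 7 of the 14 libraries of the series are wild type, 3 from hearts at 2 months and 4 from hearts at 15 months. Of 55487 genes in the table, 15528 had enough counts to be tested. All mice were untreated C57BL/6 males, and RNA came from whole heart tissue, so atria, ventricles, vessels, valves and nerves could all contribute. The other 7 libraries come from hearts in which Sqstm1, the gene of the autophagy receptor p62, carries floxed alleles (Sqstm1 fl/fl) and is removed by Cre under the cardiac muscle promoter Myh6 (3 hearts at 2 months, 4 at 15 months). They entered the shared estimate of the spread and are set beside the wild-type values at the end. The labels name neither Cre nor floxed alleles for the wild-type mice, and do not say whether they were littermates of the knockouts. The labels also do not say that the hearts of a group were dissected, extracted and sequenced separately, so the spread behind each p-value is that between these samples and may be technical.

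The mouse heart at 2 months has only just finished its postnatal growth, and at 15 months the animal is well into middle age. Cardiac muscle cells no longer divide in this interval. They depend on oxidation of fatty acids, on a paced cycle of sodium, potassium and calcium currents, and on a sarcomere built from cardiac isoforms, while fibroblasts, endothelial cells, macrophages and nerve endings fill the space between them. In bulk tissue, a lower transcript level from fewer cells of a type cannot be told apart from less RNA per cell.

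The 7 wild-type libraries held 20218992 to 29979173 counts, and 28.4% to 40.7% of these fell on mitochondrially encoded genes. Levels are given as CPM (counts relative to a common library total after scaling by the trimmed mean of M-values, TMM), always in the order of hearts 1 to 3 at 2 months and 1 to 4 at 15 months, which are wild type unless named knockout. No library repeated another within sampling noise, since the lowest chi-square statistic of a wild-type pair was 19.1 per degree of freedom. Heart 1 at 2 months stood apart: its 12 atrial marker genes summed to 2106 CPM, against 284 and 285 CPM in the other young hearts and 208 to 505 CPM at 15 months. The atrial score, a mean log2 CPM of 3 atrial genes, was 8.47, −1.97 and −2.16 at 2 months. At 15 months it was 4.75, 2.62, −0.76 and 3.64. By this score every older heart lay below heart 1 and above hearts 2 and 3 at 2 months. Leaving out heart 1 therefore does not even out the atrial share between the ages. The libraries also differed in how level depended on transcript length. Each library's deviation in log2 CPM was regressed on log2 exon length, and the slope was −0.01, −0.18 and −0.11 at 2 months, and 0.12, −0.07, 0.10 and 0.05 at 15 months. Slope and age therefore moved together, with heart 2 at 15 months inside the young range. Markers of organs other than heart summed to at most 0.517 CPM, and 6 of those 10 genes were at 0 counts in all 7 libraries.

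With age, 95 genes were higher (0.612% of genes tested) and 66 were lower (0.425%) at an adjusted p of at most 0.05 in edgeR's quasi-likelihood test with Benjamini-Hochberg adjustment. An unadjusted p below 0.05 was reached by 3694 of the 15528 genes tested, and DESeq2 called 554 higher and 546 lower. Counts of list members given below are to be read against these totals and shares. The median log2 fold change was −0.02 over all genes tested, 1.18 over the higher genes and −1.20 over the lower ones, and 58 higher and 42 lower genes changed by at least 1 on the log2 scale. The CPM ranges of the age groups did not overlap for 94 of the 95 higher and all 66 lower genes. Over all genes tested, ranges lay apart upwards for 1335 genes (8.6%) and downwards for 1175 (7.57%). Among the higher genes 92 of 95 code for protein, and among the lower genes 56 of 66 do. The number of calls moved with single libraries. It was lowest without heart 2 at 2 months (24 higher, 14 lower) and without heart 1 at 15 months (38 higher, 11 lower), and rose to 340 higher and 456 lower without knockout heart 1 at 15 months, which is in neither group of this comparison. Without any of the remaining libraries it lay between 44 and 112 higher and between 12 and 96 lower, except for the atrial-rich heart 1 at 2 months, where the counts were 202 and 309 and 135 of the 161 genes stayed called. No called gene turned its direction under any alternative run.

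**Figure D1:**
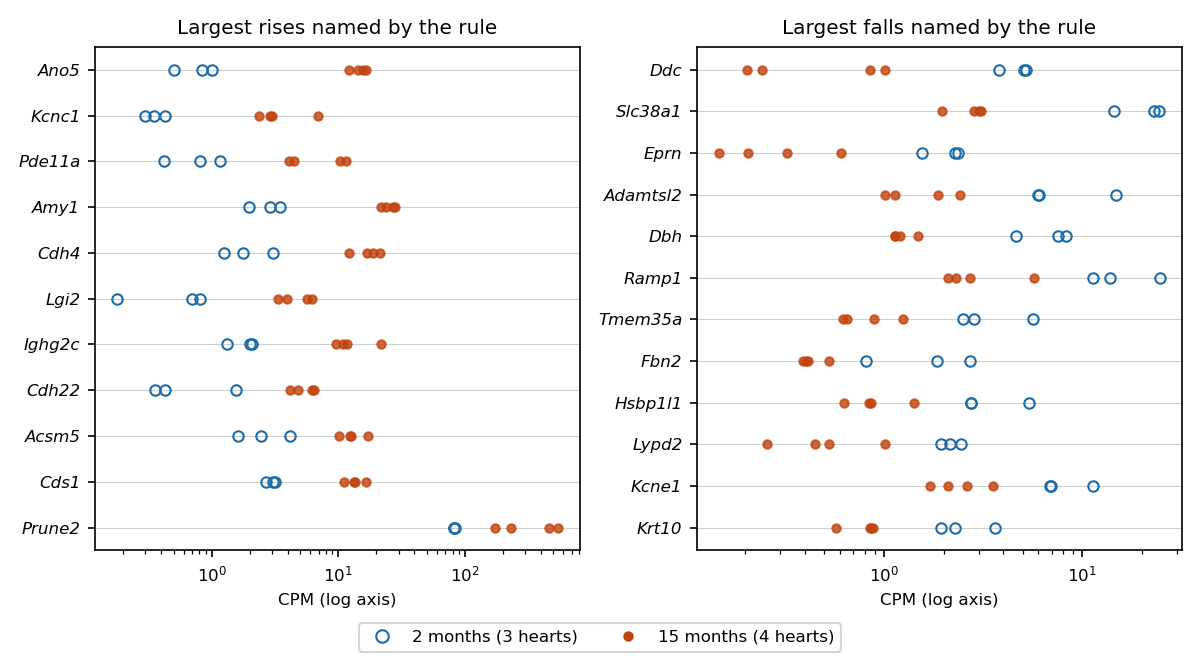
CPM on a log axis in each wild-type heart at 2 months (open circles, 3 hearts) and 15 months (filled circles, 4 hearts), for the largest rises (11, left) and largest falls (12, right) that the naming rule picked and that are reported. The rule took genes whose ages do not overlap, and Ano5 has the largest of these rises, at 4.23 on the log2 scale.

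Called genes also differed in length. The median summed exon length was 6856 bases for the higher genes, 3099 for the lower ones and 4113 for all genes tested. Over all genes, the median log2 fold change ran from −0.64 below 500 bases, through −0.08 from 2000 up to 4000 bases, to 0.18 at 8000 bases or more. Knockout hearts gave −0.81 and 0.25 in the outer bins. With each library's length slope as a covariate, 73 of the 161 genes stayed called, 58 higher and 15 lower. The part that RNA quality or library making has in this gradient was not tested.

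**Figure D2:**
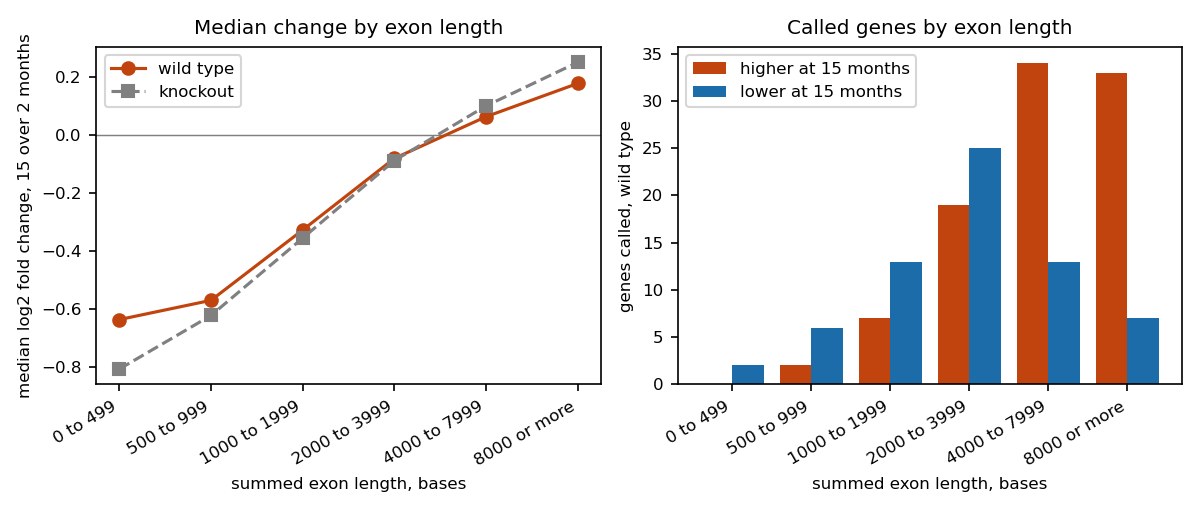
Left, median log2 fold change of all genes tested in 6 bins of summed exon length (bases), in wild-type (circles) and knockout hearts (squares). Right, bars count the genes called higher and lower in wild-type hearts in the same bins: 33 higher and 7 lower at 8000 bases or more, and 0 higher and 2 lower below 500 bases.

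Ano5 and Kcnc1 were the largest rises that the naming rule picked. Ano5 encodes anoctamin 5, a muscle membrane protein of the scramblase family whose loss causes muscular dystrophy. It lies on chromosome 7, 51511029 to 51598709, plus strand, in GRCm38. Ano5 stood at 1.01, 0.836 and 0.502 CPM at 2 months and 14.3, 16.4, 12.2 and 15.7 CPM at 15 months, low in every young heart and close together in the older ones. Its log2 fold change was 4.23 (SE 0.37, edgeR adjusted p = 3.92e-05). Kcnk1, a tandem-pore potassium leak channel, had 3 counts over the young group and 173 over the older one, a ratio of 35.4 after scaling (95% interval 11.9 to 173.2, counting error only). Dpp6, an auxiliary subunit of fast potassium channels, had 0 counts in the young hearts and 29, 29, 8 and 48 at 15 months, at least 23.3-fold higher when 3 counts over the young group are taken as the floor. Kcnc1, a fast delayed-rectifier potassium channel of neurons, was at 0.427, 0.298 and 0.348 CPM at 2 months and 2.89, 6.88, 2.37 and 3.02 CPM at 15 months, a change of 3.37 (SE 0.60, edgeR adjusted p = 0.016). Heart 2 at 15 months was the highest for Kcnc1, and all 4 older hearts lay above the young ones, as the naming rule requires. Kcnk1 and Dpp6 fell outside the naming rule, and were chosen after their values were seen.

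Scn4b and Scn4a, a pair of sodium channel subunits, rose. Scn4b, the beta-4 subunit, was at 15.3, 25.7 and 50.2 CPM at 2 months and 114, 141, 107 and 103 CPM at 15 months (log2 fold change 1.94, SE 0.32, edgeR adjusted p = 0.0117), and the highest young heart had less than the lowest older one. Scn4a, the pore subunit of the skeletal muscle sodium channel, was at 21.8 ± 5.97 CPM at 2 months and 62.6 ± 13.7 CPM at 15 months (mean ± SD, n = 3 and 4, as for all such pairs), a change of 1.52 (SE 0.29, edgeR adjusted p = 0.0256). Cacna1s, the pore of the skeletal muscle L-type calcium channel, was at 9.01 ± 1.44 CPM at 2 months and 20.6 ± 4.62 CPM at 15 months (log2 fold change 1.20, SE 0.21, edgeR adjusted p = 0.0148). Scn4a and Cacna1s were also chosen after their values were seen. Kcne1, the accessory subunit of the slow delayed-rectifier potassium current, went the other way, at 6.98, 6.87 and 11.4 CPM at 2 months and 3.55, 1.71, 2.11 and 2.62 CPM at 15 months, and fell by 1.75 on the log2 scale (SE 0.28, edgeR adjusted p = 0.00903). Of 22 cardiac sodium, potassium and pacemaker channel genes, 1 rose (Scn4b) and 1 fell (Kcne1), with a median of 0.11. Over all genes tested 0.612% rose and 0.425% fell. The channel median was 0.02 with the length slope as a covariate. Of 19 calcium handling genes none passed in edgeR (5 at an unadjusted p below 0.05 and 3 called by DESeq2). Over all 15528 genes tested, 3694 reached that unadjusted p, and DESeq2 called 554 higher and 546 lower. The sodium-calcium exchanger Slc8a1 was at 452 ± 15.1 CPM at 2 months and 782 ± 182 CPM at 15 months (edgeR adjusted p = 0.0628) and the cardiac calcium channel Cacna1c at 216 ± 20.4 CPM at 2 months and 388 ± 112 CPM at 15 months (adjusted p = 0.0696). Leaving out any 1 of the 14 libraries did not end the calls of Ano5 and Kcnk1. The call of Cacna1s was lost without heart 2 at 2 months (adjusted p = 0.0693). The call of Scn4b was lost without heart 2 at 2 months (adjusted p = 0.0869). The call of Kcne1 was lost without heart 3 at 2 months (adjusted p = 0.0526). The call of Kcnc1 was lost without heart 2 or 3 at 2 months (adjusted p up to 0.0962). The call of Dpp6 was lost without heart 2 or 3 at 2 months, or heart 1 at 15 months (adjusted p up to 0.0818). The call of Scn4a was lost without heart 2 or 3 at 2 months, or heart 1, 3 or 4 at 15 months (adjusted p up to 0.153). Scn4b was not called with the length slope as a covariate (adjusted p = 0.0648). Scn4a had a log2 fold change of 0.98 with the length slope. Slc8a1 passed without knockout heart 1 at 15 months (adjusted p = 0.0321). Cacna1c passed without heart 2 at 15 months, or knockout heart 1 at 15 months (adjusted p as low as 0.0321).

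Promoter sequences are shown for Ano5, the largest rise the naming rule picked, and for Cds1, a rise with little spread described with the metabolic genes. Both were taken for their small p among called genes with a RefSeq start near the GENCODE start. They are the 250 bases before the RefSeq gene start, 5′ to 3′ on the gene's strand, in GRCm38.p6. Capitals mark a GC box (GGGCGG) or a CCAAT box (CCAAT), with either strand counted. The Ano5 window is chr7:51510779-51511028, plus strand, and the Cds1 window is chr5:101764880-101765129, plus strand.
Ano5: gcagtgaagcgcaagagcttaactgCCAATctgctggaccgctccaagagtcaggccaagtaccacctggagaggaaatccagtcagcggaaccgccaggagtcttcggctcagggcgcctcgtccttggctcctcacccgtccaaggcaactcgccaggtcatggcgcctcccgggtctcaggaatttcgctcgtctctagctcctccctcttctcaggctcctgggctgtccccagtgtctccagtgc
Cds1: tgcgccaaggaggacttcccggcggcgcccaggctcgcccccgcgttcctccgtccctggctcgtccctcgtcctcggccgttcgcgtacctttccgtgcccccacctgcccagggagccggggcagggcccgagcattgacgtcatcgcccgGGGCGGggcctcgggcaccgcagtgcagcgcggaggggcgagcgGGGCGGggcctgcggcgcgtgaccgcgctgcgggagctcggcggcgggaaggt
The Ano5 window held 1 CCAAT box and no GC box, and the Cds1 window held 2 GC boxes at a GC content of 77.6%. RefSeq windows matched 76 of the 95 higher genes, 45 of the 66 lower genes and 10879 of all genes tested. A GC box was found in 51.3%, 46.7% and 58.2% of these, and a CCAAT box in 32.9%, 42.2% and 36.1%. The E-box CACGTG was in 6.58%, 4.44% and 8.24%, and TATAAA, read on the gene's strand only, in 1.32%, 4.44% and 4.11%. Neither of those motifs was in the Ano5 or the Cds1 window.

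Amy1, Acsm5 and Cds1, which encode metabolic enzymes, were also among the largest rises. Amy1, a starch-cleaving amylase, was at 2.91, 3.46 and 1.97 CPM at 2 months and 24.02, 27.1, 21.6 and 28.05 CPM at 15 months. The naming rule requires the older hearts to lie above the young ones, and here they lay far apart. The change of 3.19 (SE 0.19, edgeR adjusted p = 6.03e-07) had the lowest adjusted p of the comparison. Amy1 shares near-identical sequence with other amylase genes and overlaps Rnpc3 on the same strand (−0.27 for Rnpc3), so its reads are uncertain. Acsm5, a mitochondrial medium-chain acyl-CoA synthetase, was at 4.19, 2.45 and 1.62 CPM at 2 months and 12.6, 10.1, 17.2 and 12.4 CPM at 15 months (log2 fold change 2.24, SE 0.32, edgeR adjusted p = 0.00432). In Acsm5 heart 3 at 15 months was the highest and heart 1 the highest of the young hearts. Cds1 makes CDP-diacylglycerol, the precursor of phosphatidylinositol and cardiolipin. It was at 3.14, 3.04 and 2.71 CPM at 2 months and 13.5, 16.6, 13.4 and 11.2 CPM at 15 months, with young values close together, and changed by 2.20 (SE 0.18, edgeR adjusted p = 2.66e-05).

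Bdh1, the mitochondrial enzyme that interconverts the ketone bodies, was at 23.5, 19.6 and 54.5 CPM at 2 months and 187, 119, 49.9 and 155 CPM at 15 months. It rose by 1.97 (SE 0.41, edgeR adjusted p = 0.0375) and was the called gene whose ranges overlapped: heart 3 at 15 months lay below heart 3 at 2 months. An antisense gene over Bdh1, Gm15743, gave 2.13, and without a known strand setting the reads of both cannot be told apart. Bdh1 was the member called among 17 genes of ketone and branched-chain catabolism, where 0.612% of all genes tested rose. Abca12, a lipid transporter of the skin barrier, changed by 1.52 (SE 0.21, edgeR adjusted p = 0.00351) and was chosen after its values were seen. The calls of Amy1, Acsm5, Cds1 and Abca12 held without any single library. The call of Bdh1 was lost without any 1 library other than heart 3 at 2 months, heart 3 at 15 months, and knockout hearts 1 and 3 at 15 months (adjusted p up to 0.187). In the larger fuel lists no member passed in edgeR. Glycolysis, glucose uptake and glycogen had 21 of 27 genes above 0 (14 at an unadjusted p below 0.05 and 6 called by DESeq2), with a median of 0.35 that stayed positive under every alternative run and was lowest, at 0.12, with the length slope as a covariate. Pfkl, a phosphofructokinase, was at 39.7 ± 8.33 CPM at 2 months and 73.3 ± 9.51 CPM at 15 months (edgeR adjusted p = 0.0514) and Gys1, muscle glycogen synthase, at 58.4 ± 12.2 CPM at 2 months and 110.3 ± 31.1 CPM at 15 months (adjusted p = 0.0949). The 36 genes of fatty acid uptake and oxidation had a median of 0.24 (13 at an unadjusted p below 0.05 and 3 called by DESeq2), with Hadha of the trifunctional protein at 625 ± 111 CPM at 2 months and 1075 ± 299 CPM at 15 months (adjusted p = 0.119). The 23 genes of the TCA cycle and pyruvate entry had a median of 0.21 (8 at an unadjusted p below 0.05 and 3 called by DESeq2), with Ogdh at 1171 ± 199.7 CPM at 2 months and 2137 ± 479 CPM at 15 months (adjusted p = 0.0984) and Idh2 at 973 ± 114 CPM at 2 months and 1449 ± 92.6 CPM at 15 months (adjusted p = 0.057). With the length slope the fatty acid median was 0.06 and the TCA median 0.03. Ppargc1a, the coactivator of mitochondrial biogenesis, was at 73.7, 62.5 and 338 CPM at 2 months and 121, 62.1, 94.9 and 107 CPM at 15 months, high in heart 3 at 2 months alone. Its log2 fold change of −0.71 (SE 0.53) turned to 0.52 without that heart, and it did not pass (edgeR adjusted p = 0.421). Bdh1 was not called with the length slope as a covariate (adjusted p = 0.185). Bdh1 was not called with the atrial score as a covariate (adjusted p = 0.0743). Pfkl passed without heart 1 at 2 months, or heart 2 at 15 months, or knockout heart 1 or 3 at 15 months (adjusted p as low as 0.0152). Gys1 passed without knockout heart 1 at 15 months (adjusted p = 0.0339). Ogdh passed without knockout heart 1 at 15 months (adjusted p = 0.0352). Idh2 passed without knockout heart 1 at 15 months (adjusted p = 0.0359).

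Of 10 cadherins tested 2 rose and none fell, where 0.612% of all genes tested rose. The list was written with earlier results of these data known, so the count is not a result about cadherins. Cdh4, the retinal cadherin, was at 1.78, 1.25 and 3.05 CPM at 2 months and 21.4, 16.8, 12.2 and 18.8 CPM at 15 months (log2 fold change 3.06, SE 0.41, edgeR adjusted p = 0.00292). Cdh22, a brain and pituitary cadherin, was at 1.55, 0.358 and 0.425 CPM at 2 months and 6.202, 6.39, 4.84 and 4.13 CPM at 15 months (log2 fold change 2.74, SE 0.42, edgeR adjusted p = 0.0067), and its highest young value came from heart 1. Lgi2, a secreted leucine-rich repeat protein of neurons, was at 0.698, 0.179 and 0.812 CPM at 2 months and 6.202, 3.34, 5.65 and 3.94 CPM at 15 months (log2 fold change 3.02, SE 0.43, edgeR adjusted p = 0.0044). Dsp, desmoplakin of the intercalated disc, was at 1140.4, 824 and 946 CPM at 2 months and 1894, 1548, 1933 and 1621 CPM at 15 months (log2 fold change 0.85, SE 0.19, edgeR adjusted p = 0.0462), and was the member that passed among 16 intercalated disc and gap junction genes, of which 13 lay above 0. The median of that list, 0.43, turned to −0.05 with the length slope as a covariate. Dsp was not called with the length slope as a covariate (adjusted p = 0.0629). Dsp was not called with the atrial score as a covariate (adjusted p = 0.0792).

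The sarcomere and Z-disc list had 28 members, of which Myot rose and Myoz2 fell, with a median of 0.25. Over all genes tested 0.612% rose and 0.425% fell. Myotilin, from Myot, crosslinks actin at the Z-disc and was at 14.2, 10.98 and 24.7 CPM at 2 months and 78.1, 46.7, 37.2 and 77.4 CPM at 15 months (log2 fold change 1.84, SE 0.37, edgeR adjusted p = 0.032). Myoz2 encodes calsarcin-1, a Z-disc binder of calcineurin. It was at 859.8, 1713 and 1623 CPM at 2 months and 578, 753, 652 and 596 CPM at 15 months, lower in every older heart, and changed by −1.12 (SE 0.24, edgeR adjusted p = 0.0432). Trim54, a ubiquitin ligase of the sarcomere also called MuRF3, was nearly constant within each age at 57.5, 59.2 and 61.4 CPM at 2 months and 128, 124, 112 and 97.7 CPM at 15 months (log2 fold change 0.96, SE 0.14, edgeR adjusted p = 0.0044). Capn3, the muscle calpain, was at 0.508 ± 0.0628 CPM at 2 months and 2.09 ± 0.604 CPM at 15 months (log2 fold change 2.03, SE 0.35, edgeR adjusted p = 0.0129). It overlaps Ganc on the same strand, which changed by 0.41 without passing. Prune2, a large protein of the nervous system, was at 82.7, 81.96 and 82.9 CPM at 2 months and 543, 174, 231 and 465 CPM at 15 months (log2 fold change 2.10, SE 0.39, edgeR adjusted p = 0.0233), with young hearts almost equal and a wide range among the older ones. Calls held without any 1 library for Cdh4, Cdh22, Lgi2 and Trim54. The call of Capn3 was lost without heart 2 at 2 months (adjusted p = 0.0802). The call of Dsp was lost without any 1 library other than heart 1 at 2 months, heart 2 at 15 months, and knockout hearts 1, 2 and 3 at 15 months (adjusted p up to 0.213). The call of Myot was lost without heart 1 or 2 at 2 months, or heart 1 or 4 at 15 months (adjusted p up to 0.17). The call of Myoz2 was lost without any 1 library other than heart 1 at 2 months, and knockout hearts 1 and 3 at 15 months (adjusted p up to 0.199). The call of Prune2 was lost without heart 2 or 3 at 2 months, or heart 1 or 4 at 15 months (adjusted p up to 0.121). The myosin heavy chain genes did not pass. Myh6, the adult fast isoform, was at 11204, 6165 and 4153 CPM at 2 months and 18373, 12238, 18006 and 12645 CPM at 15 months (edgeR adjusted p = 0.119), with all older hearts above the young ones, and Myh7, the slow isoform of the fetal heart, at 203, 95.9 and 26.8 CPM at 2 months and 176, 389, 921 and 174 CPM at 15 months (adjusted p = 0.157). Per exon length, Myh7 made up 1.398%, 1.199% and 0.502% of the sum of both at 2 months and 0.744%, 2.42%, 3.84% and 1.06% at 15 months, so these ranges overlapped. The 7 skeletal muscle isoforms tested all lay below 0, with a median of −0.97, and none passed in edgeR (3 at an unadjusted p below 0.05 and 1 called by DESeq2). Myot, Myoz2 and Prune2 were not called with the length slope as a covariate (adjusted p = 0.152, 0.0754 and 0.116). Myot and Myoz2 were not called with the atrial score as a covariate (adjusted p = 0.0678 and 0.0792). Myoz2 had a log2 fold change of −0.64 with the length slope. Myh6 passed without heart 1 at 2 months (adjusted p = 0.042).

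Pde11a, Grk5, Prlr and Vegfd rose, and Cish and Ramp1 fell. Pde11a, a phosphodiesterase that breaks down cAMP and cGMP, was at 0.814, 0.418 and 1.159 CPM at 2 months and 4.07, 11.4, 10.3 and 4.497 CPM at 15 months (log2 fold change 3.20, SE 0.43, edgeR adjusted p = 0.00292), with hearts 2 and 3 at 15 months above hearts 1 and 4. Grk5, the kinase that desensitises beta-adrenergic receptors, was at 40.4, 33.5 and 41.5 CPM at 2 months and 92.3, 81.4, 54.9 and 69.96 CPM at 15 months (log2 fold change 0.95, SE 0.17, edgeR adjusted p = 0.0191). It overlaps Zfp950 on the opposite strand, which gave −0.53. These were the 2 members called among 33 genes of adrenergic, muscarinic and renin-angiotensin signalling, and no member of that list fell. That list was also written with earlier results known, and 0.612% of all genes tested rose. Prlr, the prolactin receptor, was at 10.5, 8.66 and 9.31 CPM at 2 months and 31.6, 23.2, 20.5 and 31.4 CPM at 15 months (log2 fold change 1.49, SE 0.18, edgeR adjusted p = 0.00163), a gene chosen after its values were seen. Cish, an inhibitor of cytokine and growth hormone receptor signalling, was at 48.1, 72.9 and 95.4 CPM at 2 months and 36.1, 38.6, 30.1 and 37.6 CPM at 15 months, lowest among the young in heart 1, and fell (log2 fold change −1.02, SE 0.22, edgeR adjusted p = 0.043). Ramp1, the subunit that makes the receptor for calcitonin gene-related peptide, was at 13.7, 24.7 and 11.3 CPM at 2 months and 2.72, 2.32, 5.72 and 2.101 CPM at 15 months (log2 fold change −2.35, SE 0.44, edgeR adjusted p = 0.0244). Vegfd, a growth factor of lymphatic vessels, was at 1.94, 0.955 and 1.12 CPM at 2 months and 3.72, 4.76, 3.96 and 4.28 CPM at 15 months (log2 fold change 1.62, SE 0.26, edgeR adjusted p = 0.00922). Of 28 angiogenesis and VEGF genes it was the member that passed, where 0.612% of all genes tested rose. No single library decided the calls of Pde11a and Prlr. The call of Vegfd was lost without heart 2 at 2 months (adjusted p = 0.0649). The call of Grk5 was lost without heart 2 or 3 at 2 months, or heart 1 at 15 months (adjusted p up to 0.121). The call of Ramp1 was lost without heart 2 at 2 months, or heart 1, 2 or 4 at 15 months (adjusted p up to 0.136). The call of Cish was lost without any 1 library other than heart 1 at 2 months, and knockout hearts 1, 2 and 3 at 15 months (adjusted p up to 0.155). The growth factor gene Igf1 was at 15.98 ± 7.86 CPM at 2 months and 12.9 ± 4.19 CPM at 15 months and did not pass (edgeR adjusted p = 0.554). Its log2 fold change of −0.31 turned to 0.17 without heart 1 at 2 months. Cish and Ramp1 were not called with the length slope as a covariate (adjusted p = 0.13 and 0.165). Cish was not called with the atrial score as a covariate (adjusted p = 0.0792). Cish had a log2 fold change of −0.67 with the length slope.

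The largest falls included a glutamine transporter and a pair of enzymes of catecholamine synthesis. Slc38a1 encodes SNAT1, a sodium-coupled importer of glutamine and other neutral amino acids, and lies on chromosome 15, 96571418 to 96642913, minus strand. It was at 23.03, 14.4 and 24.5 CPM at 2 months and 2.998, 1.95, 2.86 and 3.096 CPM at 15 months. Every older heart lay below every young one, as the naming rule requires of the largest falls. Slc38a1 fell by 2.92 on the log2 scale (SE 0.23, edgeR adjusted p = 2.24e-05). It was the member called among 20 amino acid transporters, where 0.425% of all genes tested fell. The median of these transporters was 0.01 and turned sign under 7 alternatives. Ddc, which makes dopamine from DOPA, was at 5.08, 3.82 and 5.18 CPM at 2 months and 0.241, 0.203, 1.01 and 0.848 CPM at 15 months (log2 fold change −3.01, SE 0.46, edgeR adjusted p = 0.00642). Dbh, which makes noradrenaline from dopamine, was at 7.52, 8.298 and 4.64 CPM at 2 months and 1.48, 1.14, 1.202 and 1.14 CPM at 15 months (log2 fold change −2.45, SE 0.38, edgeR adjusted p = 0.00761). Th, the enzyme before them in the pathway, had 0 counts in all 7 libraries, which allows a level of up to 0.0167 CPM over the 7 totals. Pnmt, which makes adrenaline from noradrenaline, was at 0.422 ± 0.145 CPM at 2 months and 0.339 ± 0.139 CPM at 15 months and did not pass (edgeR adjusted p = 0.712), and was chosen after its values were seen. Of the 14 Schwann and nerve genes tested Ddc and Dbh were the 2 called, where 0.425% of all genes tested fell. This list, too, was written with earlier results known. The whole list of 18 markers summed to 31.1 to 56.9 CPM at 2 months and 26.3 to 39.8 CPM at 15 months, and these ranges overlapped. The median of the list, −0.30, turned to 0.27 without heart 1 at 2 months.

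Dbh has a neighbour that fell with it. Adamtsl2, a secreted binder of microfibrils, ends 56252 bases before Dbh starts on chromosome 2, both on the plus strand. It was at 14.7, 6.03 and 5.95 CPM at 2 months and 2.41, 1.02, 1.14 and 1.88 CPM at 15 months, highest in heart 1 at 2 months, and changed by −2.46 (SE 0.41, edgeR adjusted p = 0.011). On chromosome X 6 of 479 genes tested fell and 3 rose, where 0.425% of all genes tested fell and 0.612% rose. Falls on other chromosomes ran from 0 of 533 genes on chromosome 14 to 7 of 601 on chromosome 15. The X-linked falls include Tceal8 and Tceal9, small acidic proteins of the transcription elongation factor A-like family. They lie on opposite strands 72737 bases apart and were chosen after their values were seen. Tceal8 was at 14.4, 13.3 and 11.7 CPM at 2 months and 4.72, 4.76, 4.22 and 5.897 CPM at 15 months (log2 fold change −1.42, SE 0.15, edgeR adjusted p = 0.000444), and Tceal9 at 16.5, 19.9 and 20.02 CPM at 2 months and 6.99, 9.03, 5.75 and 10.5 CPM at 15 months (log2 fold change −1.22, SE 0.26, edgeR adjusted p = 0.0393). In both genes the lowest young heart exceeded the highest older one. Tmem35a, a chaperone of nicotinic receptors, was at 5.66, 2.51 and 2.86 CPM at 2 months and 0.620, 0.895, 0.650 and 1.25 CPM at 15 months (log2 fold change −2.11, SE 0.38, edgeR adjusted p = 0.02). Armcx3, a mitochondrial outer membrane protein that lies 450626 bases from Tmem35a, changed by −1.23 (SE 0.19, edgeR adjusted p = 0.0067) and was also chosen after the values. Tceal9 was not called with the length slope as a covariate (adjusted p = 0.0721). Tceal9 was not called with the atrial score as a covariate (adjusted p = 0.05001). Tceal9 had a log2 fold change of −0.81 with the length slope.

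The promoter of Tceal8 was taken by the same rule as those of Ano5 and Cds1, and that of Tceal9 was added because it is a neighbour that also fell. Capitals mark the same boxes, with ATTGG being CCAAT on the other strand. The windows are chrX:136172252-136172501, minus strand, for Tceal8, whose RefSeq start lies 91 bases from the GENCODE start, and chrX:136244830-136245079, plus strand, for Tceal9.
Tceal8: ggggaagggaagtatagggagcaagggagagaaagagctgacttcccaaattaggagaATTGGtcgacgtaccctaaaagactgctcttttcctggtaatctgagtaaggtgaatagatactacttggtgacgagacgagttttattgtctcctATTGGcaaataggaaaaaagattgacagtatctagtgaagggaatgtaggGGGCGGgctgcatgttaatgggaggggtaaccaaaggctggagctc
Tceal9: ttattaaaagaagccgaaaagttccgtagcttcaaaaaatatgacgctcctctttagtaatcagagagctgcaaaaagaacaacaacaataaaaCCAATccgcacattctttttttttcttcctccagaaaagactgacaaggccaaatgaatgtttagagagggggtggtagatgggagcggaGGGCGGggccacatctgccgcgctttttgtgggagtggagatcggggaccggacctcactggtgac
Tceal8 held 1 GC box and 2 CCAAT boxes, and Tceal9 held 1 of each. Both windows lacked the E-box and TATAAA. Their GC contents were 46.0% and 46.4%, and the median was 53.6% over the 45 windows of lower genes and 59.6% over all tested.

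Transcripts of low abundance completed the list of falls. Eprn, a non-coding RNA gene, was at 1.55, 2.27 and 2.36 CPM at 2 months and 0.207, 0.610, 0.325 and 0.147 CPM at 15 months (log2 fold change −2.67, SE 0.54, edgeR adjusted p = 0.032). Hsbp1l1, related to a binder of heat shock factor, was at 2.75, 5.37 and 2.74 CPM at 2 months and 0.861, 1.42, 0.844 and 0.627 CPM at 15 months (log2 fold change −1.94, SE 0.36, edgeR adjusted p = 0.0233). Lypd2, a Ly6-family surface protein, and Krt10, an epidermal keratin, were at 2.17 ± 0.249 CPM at 2 months and 0.560 ± 0.319 CPM at 15 months, and at 2.62 ± 0.901 CPM at 2 months and 0.789 ± 0.147 CPM at 15 months. Their log2 fold changes were −1.94 (SE 0.37, edgeR adjusted p = 0.0256) and −1.71 (SE 0.34, edgeR adjusted p = 0.032). Among these falls, those of Slc38a1, Ddc, Dbh, Adamtsl2, Tceal8 and Armcx3 were called without any 1 library. The call of Tmem35a was lost without heart 1 or 3 at 15 months (adjusted p up to 0.0846). The call of Tceal9 was lost without any 1 library other than heart 1 at 2 months, heart 4 at 15 months, knockout heart 2 at 2 months, and knockout hearts 1, 2 and 3 at 15 months (adjusted p up to 0.155). The call of Eprn was lost without heart 2 or 3 at 2 months, or heart 1, 3 or 4 at 15 months, or knockout heart 1 or 3 at 2 months (adjusted p up to 0.121). The call of Hsbp1l1 was lost without heart 2 at 2 months, or heart 1, 3 or 4 at 15 months (adjusted p up to 0.136). The call of Lypd2 was lost without heart 2 or 3 at 2 months, or heart 1 or 4 at 15 months (adjusted p up to 0.0993). The call of Krt10 was lost without heart 2 or 3 at 2 months, or heart 1, 2, 3 or 4 at 15 months, or knockout heart 1 at 2 months (adjusted p up to 0.172). Eprn, Hsbp1l1, Lypd2 and Krt10 were not called with the length slope as a covariate (adjusted p = 0.0752, 0.0721, 0.0546 and 0.13). Eprn and Krt10 were not called with the atrial score as a covariate (adjusted p = 0.055 and 0.0554).

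Fibroblast and matrix genes lay mostly below 0, and few passed. Mfap5, a microfibril glycoprotein made by fibroblasts, was at 19.6, 15.8 and 19.9 CPM at 2 months and 6.55, 7.04, 8.705 and 10.2 CPM at 15 months, without overlap, and changed by −1.18 (SE 0.18, edgeR adjusted p = 0.00582). Sparc, a collagen-binding matrix protein, was at 336, 274 and 324 CPM at 2 months and 175, 152, 188 and 236 CPM at 15 months (log2 fold change −0.73, SE 0.16, edgeR adjusted p = 0.043). Fbn2, the fibrillin of developing tissue, was at 2.71, 1.85 and 0.812 CPM at 2 months and 0.413, 0.529, 0.390 and 0.405 CPM at 15 months (log2 fold change −2.04, SE 0.44, edgeR adjusted p = 0.043), with a wide range among the young hearts. The call of Mfap5 held without any single library. That of Fbn2 was lost without any 1 library other than heart 3 at 2 months, and knockout hearts 1, 2 and 3 at 15 months (adjusted p up to 0.155). That of Sparc was lost without any 1 library other than heart 4 at 15 months, and knockout hearts 1 and 3 at 15 months (adjusted p up to 0.141). Of 20 fibroblast markers tested Mfap5 passed, where 0.425% of all genes tested fell. Of these markers 19 lay below 0 and the median was −0.58. Their summed level was 1146 to 2935 CPM at 2 months and 868 to 1709.8 CPM at 15 months, highest in heart 1 at 2 months, and the list median was −0.12 without that heart. The part of this heart's tissue makeup in the fall was not tested. Sparc and Fbn2 were not called with the atrial score as a covariate (adjusted p = 0.0743 and 0.0504).

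None of 23 collagen genes passed in edgeR (4 at an unadjusted p below 0.05 and 0 called by DESeq2). Col3a1 was at 270.2, 205 and 99.9 CPM at 2 months and 68.5, 31.3, 84.3 and 134 CPM at 15 months (edgeR adjusted p = 0.139), Col1a1 at 84.3, 22.9 and 13.9 CPM at 2 months and 21.6, 10.3, 40.7 and 24.99 CPM at 15 months (adjusted p = 0.533) and Postn, a matricellular protein of activated fibroblasts, at 58.7, 22.9 and 23.8 CPM at 2 months and 18.7, 11.4, 32.9 and 39.7 CPM at 15 months (adjusted p = 0.471). Heart 1 at 2 months was the highest of the 7 for all of Col1a1, Col3a1 and Postn. Without it the log2 fold change of Col1a1 turned from −0.73 to 0.43, that of Postn from −0.46 to 0.15, and the collagen median from −0.41 to 0.06. With the length slope as a covariate the collagen median was −1.23. In knockout hearts the collagen median was 0.66 and the fibroblast median 0.46, of the opposite sign. For Mfap5, the log2 fold change was −0.09 (SE 0.18) in knockout hearts. The difference between the age effects had an unadjusted p of 0.00057, but an adjusted p of 1 over all genes in edgeR.

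**Figure D3:**
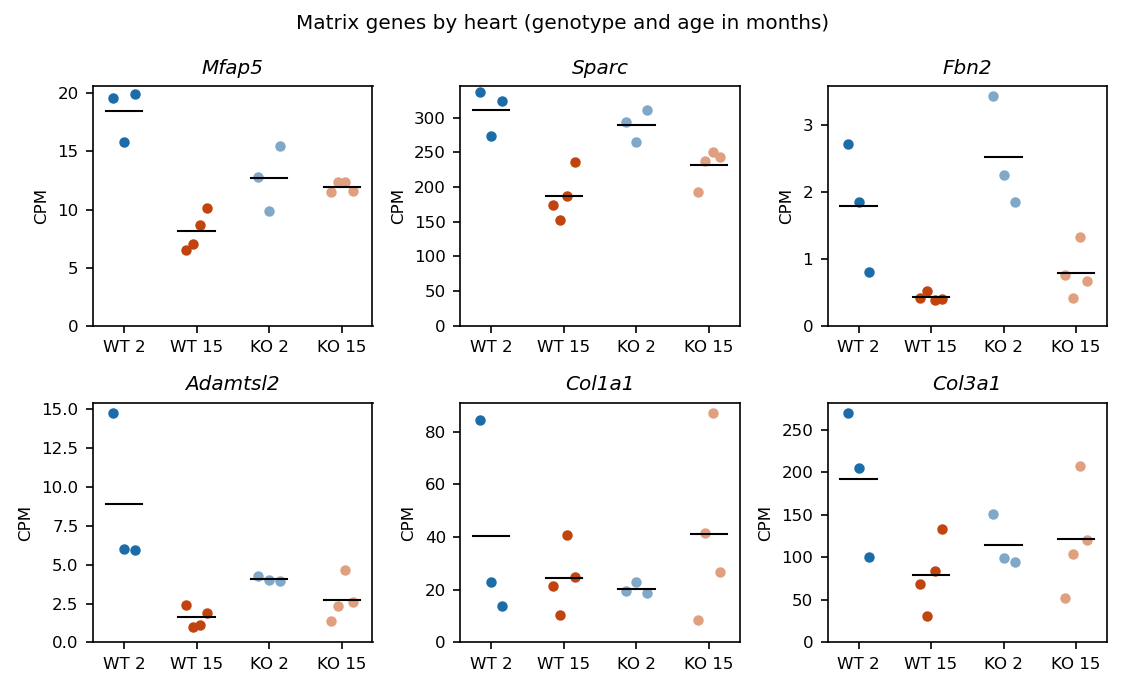
CPM on linear axes from 0 of 6 matrix genes in each heart (points) with the group mean (line), for wild-type (WT) and knockout (KO) hearts at 2 and 15 months. Mfap5 and Sparc are lower in every wild-type heart at 15 months than in any at 2 months, and heart 1 at 2 months holds the highest wild-type values of Col1a1 (84.3 CPM) and Col3a1 (270.2 CPM).

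Lists of short housekeeping transcripts lay below 0 with very few calls in edgeR. Of the cytosolic ribosomal protein genes, 56 of 81 had an unadjusted p below 0.05 and DESeq2 called 12. All 81 cytosolic ribosomal protein genes tested lay below 0, with a median of −0.82, and 1 passed: Rpl30 was at 106, 201 and 164 CPM at 2 months and 85.1, 57.5, 70.1 and 100.1 CPM at 15 months (log2 fold change −1.003, SE 0.23, edgeR adjusted p = 0.0496), with heart 1 the lowest of the young. Nuclear complex I genes lay below 0 in 33 of 37 cases, with a median of −0.63, and none passed in edgeR (23 at an unadjusted p below 0.05 and 10 called by DESeq2). Complexes II to V had 38 of 42 below 0 and a median of −0.65 (26 at an unadjusted p below 0.05 and 10 called by DESeq2). In that list Cox7c, a small subunit of cytochrome oxidase, was at 689, 1358 and 1277 CPM at 2 months and 456, 415, 468 and 496 CPM at 15 months and fell (log2 fold change −1.27, SE 0.28, edgeR adjusted p = 0.0462). Mitochondrial ribosomal proteins had 72 of 78 below 0 and a median of −0.43, and none passed (37 at an unadjusted p below 0.05 and 5 called by DESeq2). Among members that did not pass, Ndufb6 was at 210.4 ± 78.2 CPM at 2 months and 90.6 ± 20.4 CPM at 15 months (edgeR adjusted p = 0.079), Ndufa1 at 231 ± 78.7 CPM at 2 months and 119 ± 8.86 CPM at 15 months (adjusted p = 0.0741) and Mrpl42 at 277 ± 70.7 CPM at 2 months and 122 ± 20.1 CPM at 15 months (adjusted p = 0.0774). Rpl30 lost its call without any 1 library other than heart 1 at 2 months, and knockout heart 1 at 15 months (adjusted p up to 0.236). Cox7c lost its call without any 1 library other than heart 1 at 2 months, and knockout hearts 1 and 3 at 15 months (adjusted p up to 0.204). Rpl30 has pseudogene copies in the annotation that can share reads. Rpl30 and Cox7c were not called with the length slope as a covariate (adjusted p = 0.188 and 0.13). Rpl30 and Cox7c were not called with the atrial score as a covariate (adjusted p = 0.0843 and 0.0792). Cox7c had a log2 fold change of −0.71 with the length slope. Ndufb6 passed without heart 1 at 2 months, or knockout heart 1 at 15 months (adjusted p as low as 0.0231). Ndufa1 passed without heart 1 at 2 months, or knockout heart 1 at 15 months (adjusted p as low as 0.023). Mrpl42 passed without heart 1 at 2 months, or knockout heart 1 or 3 at 15 months (adjusted p as low as 0.0203).

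With the length slope as a covariate these medians were −0.07, −0.06, −0.13 and −0.05 in the same order, close to the median of all genes. The slope was computed from these same levels and moved with age, so this run cannot tell age from length. The median exon lengths of the lists were 1781, 1569, 1716 and 2394 bases, against 4113 over all genes. In knockout hearts the medians were −1.01, −0.78, −0.79 and −0.62. Transcripts of the mitochondrial genome, which are also short, had a median of 0.10 over 13 genes, which turned sign without heart 1 at 15 months or heart 3 at 2 months, and none passed in edgeR (0 at an unadjusted p below 0.05 and 0 called by DESeq2). mt-Co1, a cytochrome oxidase subunit, was at 102527, 212828 and 161859 CPM at 2 months and 120755, 125921, 95617 and 125020.0 CPM at 15 months (edgeR adjusted p = 0.351).

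**Figure D4:**
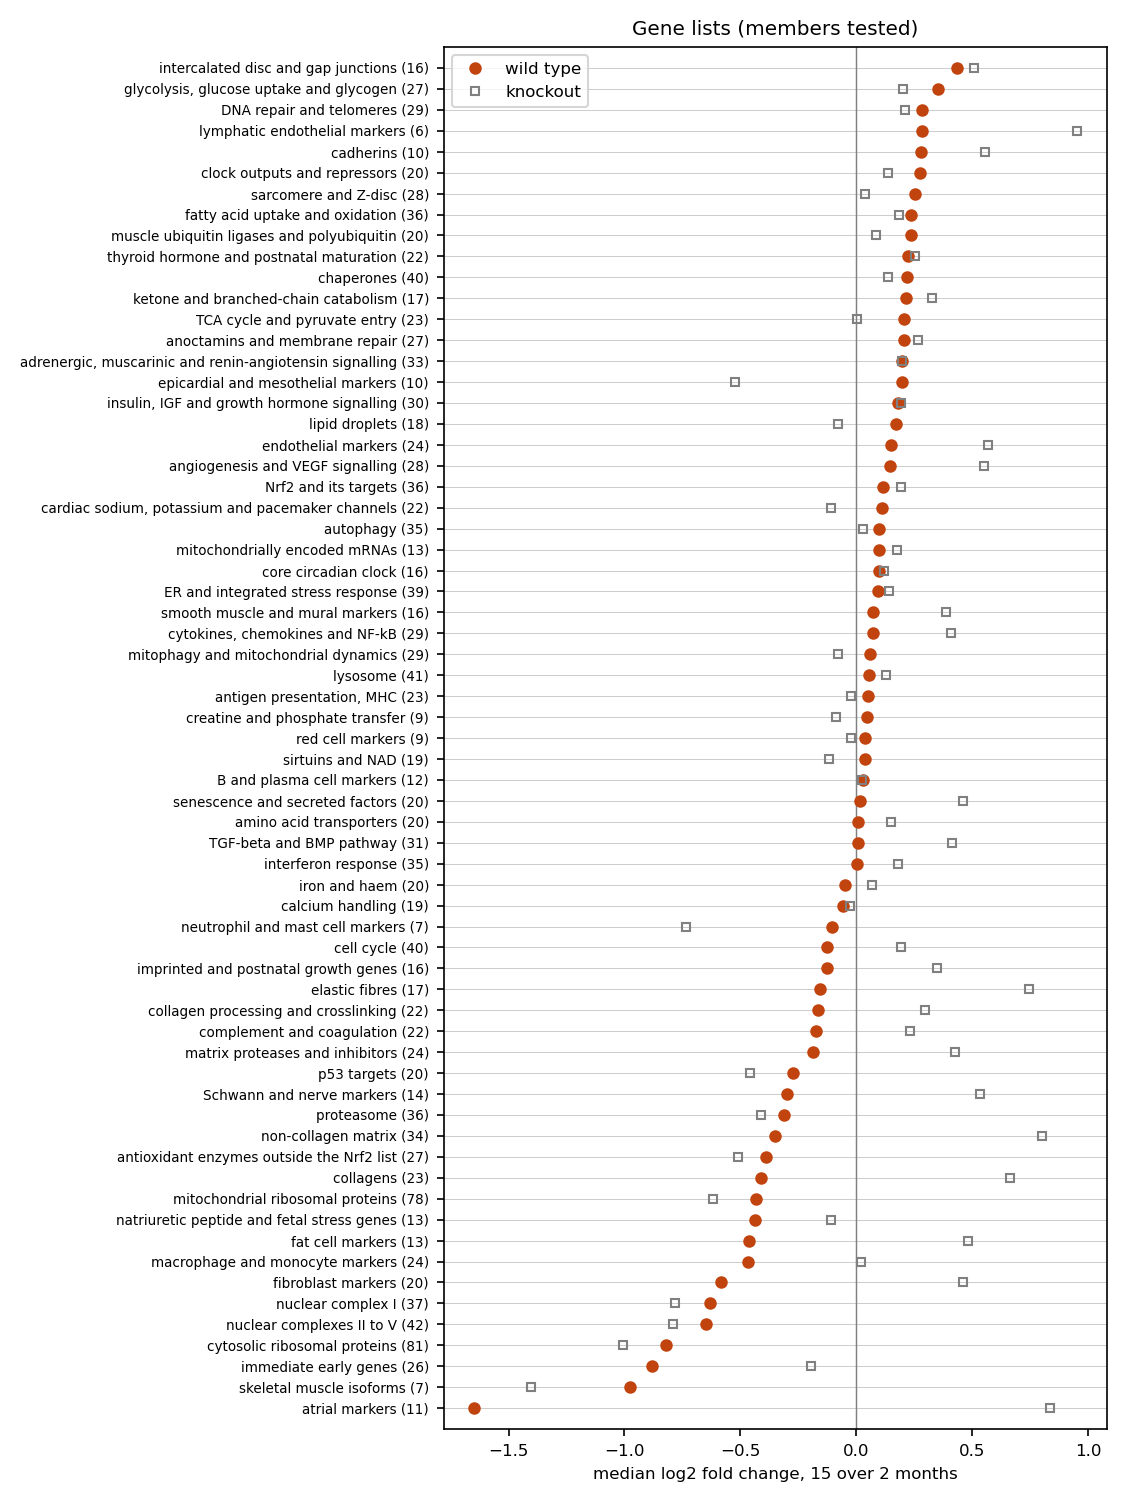
Median log2 fold change of 15 over 2 months for each gene list with at least 5 genes tested (number in parentheses), in wild-type (filled circles) and knockout hearts (open squares). Atrial markers (−1.65), skeletal muscle isoforms (−0.97), immediate early genes (−0.88) and cytosolic ribosomal proteins (−0.82) have the lowest wild-type medians, and intercalated disc genes (0.43) the highest.

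Ighg2c rose, and no marker of macrophages, T cells or NK cells passed with all 14 libraries. Ighg2c, an immunoglobulin G heavy chain constant region secreted by plasma cells, was at 2.02, 1.31 and 2.09 CPM at 2 months and 11.7, 21.9, 9.55 and 10.98 CPM at 15 months (log2 fold change 2.88, SE 0.51, edgeR adjusted p = 0.0154), with heart 2 at 15 months the highest. It shares sequence with other immunoglobulin G genes, so its reads are uncertain. It was not called without heart 2 or 3 at 2 months (adjusted p up to 0.104). Igkc, the kappa light chain, was at 1.27 ± 0.355 CPM at 2 months and 0.870 ± 0.157 CPM at 15 months (edgeR adjusted p = 0.466) and Jchain, which joins secreted polymers, at 0.322 ± 0.431 CPM at 2 months and 0.250 ± 0.101 CPM at 15 months (adjusted p = 0.753). The 22 B and plasma cell markers summed to 105 to 119 CPM at 2 months and 118 to 156 CPM at 15 months, and Ighg2c was the member called of 12 tested. Macrophage and monocyte markers summed to 470.0 to 524 CPM at 2 months and 253 to 401 CPM at 15 months, lower in all older hearts. Of 24 tested, 19 lay below 0 and 7 had ranges apart downwards, as did 7.57% of all genes tested. None passed in edgeR (9 at an unadjusted p below 0.05 and 5 called by DESeq2). The median of −0.47 stayed negative under every alternative run, but the median in knockout hearts was 0.02. Lyz2, lysozyme, was at 197, 276 and 245 CPM at 2 months and 68.2, 123, 80.7 and 153 CPM at 15 months (edgeR adjusted p = 0.0717), Tyrobp, a myeloid signalling adaptor, at 12.5 ± 3.13 CPM at 2 months and 5.597 ± 2.11 CPM at 15 months (adjusted p = 0.0802), and C1qb of complement at 25.8 ± 2.33 CPM at 2 months and 17.1 ± 2.197 CPM at 15 months (adjusted p = 0.0814). Fcgr3, a low-affinity receptor for immunoglobulin G that was chosen after its values were seen and stands on none of the lists, was at 17.6, 26.9 and 22.5 CPM at 2 months and 6.55, 11.4, 8.41 and 9.84 CPM at 15 months and fell (log2 fold change −1.30, SE 0.27, edgeR adjusted p = 0.0374). It lost its call without any 1 library other than heart 1 at 2 months, heart 2 at 15 months, knockout heart 2 at 2 months, and knockout hearts 1, 3 and 4 at 15 months (adjusted p up to 0.18). C4b, a complement gene, was at 33.6, 6.87 and 3.13 CPM at 2 months and 23.6, 12.7, 23.6 and 31.1 CPM at 15 months, and did not pass (adjusted p = 0.525). T and NK cell markers summed to 7.03 to 8.18 CPM at 2 months and 5.55 to 8.15 CPM at 15 months, endothelial markers to 1460.0 to 1523 CPM at 2 months and 1385 to 1747 CPM at 15 months, and neither list had a gene that passed in edgeR (0 at an unadjusted p below 0.05 and 0 called by DESeq2 of the first, 2 at an unadjusted p below 0.05 and 0 called by DESeq2 of the second). None of 35 interferon response genes passed in edgeR (4 at an unadjusted p below 0.05 and 2 called by DESeq2), with a median of 0.003. Fcgr3 was not called with the length slope as a covariate (adjusted p = 0.0622). Fcgr3 was not called with the atrial score as a covariate (adjusted p = 0.0632). Fcgr3 had a log2 fold change of −0.85 with the length slope. Lyz2 passed without knockout heart 1 at 15 months (adjusted p = 0.0274). Tyrobp passed without knockout heart 1 at 15 months (adjusted p = 0.0359). C1qb passed without knockout heart 1 at 15 months (adjusted p = 0.0399). C4b passed without heart 1 at 2 months (adjusted p = 0.0282). Without that heart the log2 fold change of C4b went from 0.64 to 2.22.

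Growth arrest and early response genes gave a pair of falls. Btg2, an antiproliferative target of p53 and also an immediate early gene, was at 71.2, 24.9 and 59.6 CPM at 2 months and 18.3, 17.4, 20.6 and 13.9 CPM at 15 months, lower in every older heart, and fell (log2 fold change −1.57, SE 0.32, edgeR adjusted p = 0.032). Fas, the death receptor, was at 17.2, 18.1 and 18.1 CPM at 2 months and 9.27, 9.89, 9.03 and 11.8 CPM at 15 months (log2 fold change −0.83, SE 0.16, edgeR adjusted p = 0.0307) and was the member called among 20 p53 targets while Btg2 stands in the immediate early list. The call of Btg2 was lost without heart 1 or 3 at 2 months, or heart 1, 2, 3 or 4 at 15 months, or knockout heart 1 at 2 months (adjusted p up to 0.104). That of Fas was lost without heart 2 or 3 at 2 months, or heart 1 or 3 at 15 months, or knockout heart 1 at 2 months (adjusted p up to 0.126). The immediate early list had 24 of 26 genes below 0 and a median of −0.88, which was −0.16 without heart 1 at 2 months. Young hearts differed widely in it: Atf3 was at 6.13, 4.12 and 105 CPM at 2 months and 1.48, 1.75, 1.88 and 1.51 CPM at 15 months, Fosb at 2.29, 0.0597 and 8.23 CPM at 2 months and 0.138, 0.0814, 0.325 and 0.0737 CPM at 15 months and Fos at 30.2, 0.955 and 2.01 CPM at 2 months and 0.999, 1.14, 3.05 and 0.663 CPM at 15 months, with heart 3 the highest for Atf3 and Fosb and heart 1 for Fos. These 3 were chosen after their values were seen and did not pass (edgeR adjusted p = 0.057, 0.057 and 0.106). Cdkn1a, the p21 inhibitor of cell division, was at 11.2, 5.25 and 25.97 CPM at 2 months and 14.8, 3.54, 3.83 and 11.2 CPM at 15 months (adjusted p = 0.423), with broad overlap. Cdkn2a, a senescence marker, was too low to test, with 0, 1 and 7 counts at 2 months and 6, 4, 2 and 9 at 15 months. Of 40 cell cycle genes none passed in edgeR (11 at an unadjusted p below 0.05 and 3 called by DESeq2). Cdkn1b, the p27 inhibitor, was at 48.8 ± 0.855 CPM at 2 months and 36.5 ± 2.29 CPM at 15 months (adjusted p = 0.0672) and Ccne2, a cyclin of entry into DNA synthesis, at 5.58 ± 1.25 CPM at 2 months and 2.78 ± 0.710 CPM at 15 months (adjusted p = 0.0831). Rian, a maternally expressed imprinted RNA, was at 12.4, 9.25 and 7.42 CPM at 2 months and 3.62, 3.296, 2.696 and 3.502 CPM at 15 months (log2 fold change −1.56, SE 0.32, edgeR adjusted p = 0.0345), the member called of 16 imprinted and postnatal growth genes, and its call was lost without any 1 library other than knockout hearts 1 and 2 at 2 months, and knockout hearts 1, 2 and 3 at 15 months (adjusted p up to 0.119). DNA repair and telomere genes lay above 0 in 22 of 29 cases with a median of 0.29, and none passed in edgeR (8 at an unadjusted p below 0.05 and 0 called by DESeq2). Btg2, Fas and Rian were not called with the length slope as a covariate (adjusted p = 0.0735, 0.0627 and 0.0783). Fas was not called with the atrial score as a covariate (adjusted p = 0.05001). Atf3 passed without heart 1 at 2 months, or knockout heart 3 at 2 months (adjusted p as low as 0.0341). Fosb passed without heart 1 or 2 at 2 months, or knockout heart 1 at 15 months (adjusted p as low as 0.0258). Cdkn1b passed without knockout heart 1 at 15 months (adjusted p = 0.0388). Ccne2 passed without heart 1 at 2 months, or knockout heart 1 at 15 months (adjusted p as low as 0.0364).

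Clock genes were compared because hearts of different groups can be taken at different hours, which the labels do not give. Bhlhe41, a clock repressor, was at 19.8, 14.6 and 28.8 CPM at 2 months and 52.8, 36.02, 51.3 and 39.8 CPM at 15 months and rose (log2 fold change 1.09, SE 0.23, edgeR adjusted p = 0.0374), a call lost without any 1 library other than heart 3 at 2 months, heart 2 at 15 months, knockout heart 1 at 2 months, and knockout hearts 1, 2 and 3 at 15 months (adjusted p up to 0.178). It was the member called of 20 clock outputs and repressors, where 0.612% of all genes tested rose. Dbp, the output gene with a strong daily rhythm, was at 31.4, 30.3 and 71.4 CPM at 2 months and 108, 110.4, 127 and 92.5 CPM at 15 months (edgeR adjusted p = 0.094), with all older hearts above the young ones. Of 16 core clock genes none passed in edgeR (7 at an unadjusted p below 0.05 and 2 called by DESeq2). Arntl and Npas2, of the activating limb, were at 6.39 ± 2.304 CPM at 2 months and 3.18 ± 0.970 CPM at 15 months (adjusted p = 0.19) and 3.72 ± 0.877 CPM at 2 months and 1.59 ± 0.602 CPM at 15 months (adjusted p = 0.0966), and Per3, of the repressing limb, at 11.97 ± 0.331 CPM at 2 months and 20.2 ± 5.84 CPM at 15 months (adjusted p = 0.106). Age and the hour of collection cannot be told apart here. Bhlhe41 was not called with the length slope as a covariate (adjusted p = 0.12). Bhlhe41 was not called with the atrial score as a covariate (adjusted p = 0.0554). Dbp passed without knockout heart 3 at 2 months (adjusted p = 0.0388). Npas2 passed without knockout heart 1 at 15 months (adjusted p = 0.0496).

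The pathway named in the series title gave 1 edgeR call with age in wild-type hearts. Nrf2, encoded by Nfe2l2, drives genes of glutathione and quinone defence and is freed when p62 binds its inhibitor Keap1. Sqstm1 was at 177, 139 and 169 CPM at 2 months and 208, 186, 238 and 173 CPM at 15 months (log2 fold change 0.31, SE 0.26, edgeR adjusted p = 0.479), and Nfe2l2 at 42.6, 42.9 and 58.7 CPM at 2 months and 40.5, 29.5, 51.9 and 45.5 CPM at 15 months (adjusted p = 0.651). Both ranges overlapped. Nqo1, a quinone reductase, was at 31.5, 34.6 and 57.8 CPM at 2 months and 55.8, 64.3, 53.3 and 55.7 CPM at 15 months (adjusted p = 0.19), and Hmox1, haem oxygenase, at 5.25 ± 2.54 CPM at 2 months and 3.82 ± 1.06 CPM at 15 months (adjusted p = 0.428). Of 36 Nrf2 genes tested 1 rose and none fell in edgeR, with a median of 0.12, where 0.612% of all genes tested rose. An unadjusted p below 0.05 was reached by 15 (3694 of all 15528 genes), and DESeq2 called 4. Ranges lay apart upwards for 8 and downwards for 1, against 8.6% and 7.57% of all genes tested. The list was written with earlier results known. The riser, Gsta2, a glutathione transferase, had 2 counts over the young group and 92 over the older one, a ratio of 28.2 (95% interval 7.59 to 236.5, counting error only). Its reads cannot be told from those of its near copy Gsta1, and the call was lost without heart 2 or 3 at 2 months (edgeR adjusted p up to 0.0719).

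Autophagy and protein turnover gave a further call. Optn, the autophagy receptor optineurin, was at 39.7, 48.7 and 47.5 CPM at 2 months and 77.5, 86.2, 67.7 and 65.4 CPM at 15 months and rose (log2 fold change 0.71, SE 0.14, edgeR adjusted p = 0.0301). It was lost without heart 2 or 3 at 2 months, or heart 1 at 15 months (adjusted p up to 0.0977). Optn was the member called of 35 autophagy genes, where 0.612% of all genes tested rose. None of 36 proteasome genes passed in edgeR (13 at an unadjusted p below 0.05 and 0 called by DESeq2), with 27 below 0 and a median of −0.31, which was −0.06 with the length slope as a covariate. Psmb7, a catalytic subunit, was at 118 ± 15.2 CPM at 2 months and 86.9 ± 6.79 CPM at 15 months (edgeR adjusted p = 0.12). In the same way 27 antioxidant enzymes outside the Nrf2 list had 22 below 0, a median of −0.39 and no edgeR call (10 at an unadjusted p below 0.05 and 5 called by DESeq2). Their median was −0.11 with the length slope as a covariate, and their median exon length was 2139 bases. Of 19 sirtuin and NAD genes none passed in edgeR (1 at an unadjusted p below 0.05 and 1 called by DESeq2). Sirt1 was at 12.8 ± 1.12 CPM at 2 months and 13.5 ± 0.979 CPM at 15 months (adjusted p = 0.745) and Sirt3, the mitochondrial deacetylase, at 19.8 ± 4.04 CPM at 2 months and 18.6 ± 3.79 CPM at 15 months (adjusted p = 0.801).

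Natriuretic peptide and fetal stress genes varied widely within each age. Nppa, the atrial natriuretic peptide, was at 366, 89.4 and 128 CPM at 2 months and 127, 17.01, 0.650 and 26.5 CPM at 15 months, and Nppb, the ventricular peptide, at 54.1, 324 and 429 CPM at 2 months and 106, 109.8, 6.53 and 159 CPM at 15 months. Heart 3 at 15 months had the lowest level of both. Nppa had its highest level in heart 1 at 2 months, where atrial markers were high, and neither gene passed (edgeR adjusted p = 0.23 and 0.316). Acta1, skeletal actin, was at 249, 203 and 549 CPM at 2 months and 230.3, 134, 87.99 and 356 CPM at 15 months (adjusted p = 0.301). Of 13 genes of the list tested none passed in edgeR (4 at an unadjusted p below 0.05 and 1 called by DESeq2). The calcium pump gene Atp2a2 was at 8373 ± 1297 CPM at 2 months and 11657 ± 2408 CPM at 15 months (adjusted p = 0.216) and its inhibitor Pln at 4752 ± 878 CPM at 2 months and 3963 ± 230.1 CPM at 15 months (adjusted p = 0.355). The atrial marker median of −1.65 turned to 0.74 without heart 1 at 2 months. With the libraries' atrial score as a covariate, 83 of the 161 genes stayed called, 59 higher and 24 lower.

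Hearts without p62 in cardiac muscle gave the same comparison in mice that the wild-type contrast did not use. The 2 comparisons share no library, although they share the fit's estimate of the spread. The length slope also moved with age in knockout hearts. It was −0.14, −0.04 and −0.11 at 2 months and −0.09, 0.16, 0.24 and 0.09 at 15 months. Its part in the agreement between genotypes was not tested. Sqstm1 stood at 15.2, 14.7 and 19.2 CPM in the knockout hearts at 2 months and 14.6, 36.99, 16.2 and 17.6 CPM at 15 months, all below the lowest wild-type heart. Cells other than cardiac muscle, in which the Myh6 promoter is not active, keep the gene, but the source of the remaining reads was not tested. In knockout hearts 166 genes were higher (1.07%) and 183 lower (1.18%) at 15 months. These counts fell to 29 and 20 without knockout heart 1 at 2 months and reached 1600 and 1923 without knockout heart 1 at 15 months. All 95 genes higher in wild type were above 0 in knockout hearts, and 57 of them (60.0%) were called there. Of the 66 lower genes 65 were below 0, with Rbpj-ps3, a pseudogene, as the exception, and 24 (36.4%) were called. Over all genes tested, 77.0% of those above 0 and 74.0% of those below 0 in wild type lay on the same side in knockout hearts. Of the genes called in knockout hearts, 34.3% of the higher and 13.1% of the lower were also called in wild type. The 95 higher and 66 lower wild-type genes had a median log2 fold change of 1.18 and −1.20 in wild type and 0.99 and −0.83 in knockout hearts. No gene had a different age effect between genotypes at an adjusted p of at most 0.05 in edgeR, with 577 at an unadjusted p below 0.05, 1 gene called by DESeq2 and 1 by edgeR without knockout heart 2 at 2 months.

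Single genes can be set side by side in the same way. Ano5 changed by 4.12 (SE 0.37) in knockout hearts, Slc38a1 by −3.01 (SE 0.23) and Amy1 by 3.96 (SE 0.20), and each was called in both genotypes. Cdh22 gave 4.18 (SE 0.46) in knockout and 2.74 (SE 0.42) in wild-type hearts, called in both. Called in wild type but not in knockout hearts were Trim54 (log2 fold change 0.43, SE 0.14 in knockout hearts), Dbh (−1.10, SE 0.37), Adamtsl2 (−0.55, SE 0.40) and Gsta2 (1.39, SE 0.79). For none of these did the difference between genotypes pass (edgeR adjusted p = 1), and the unadjusted p for Adamtsl2 was 0.00473.

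**Figure D5:**
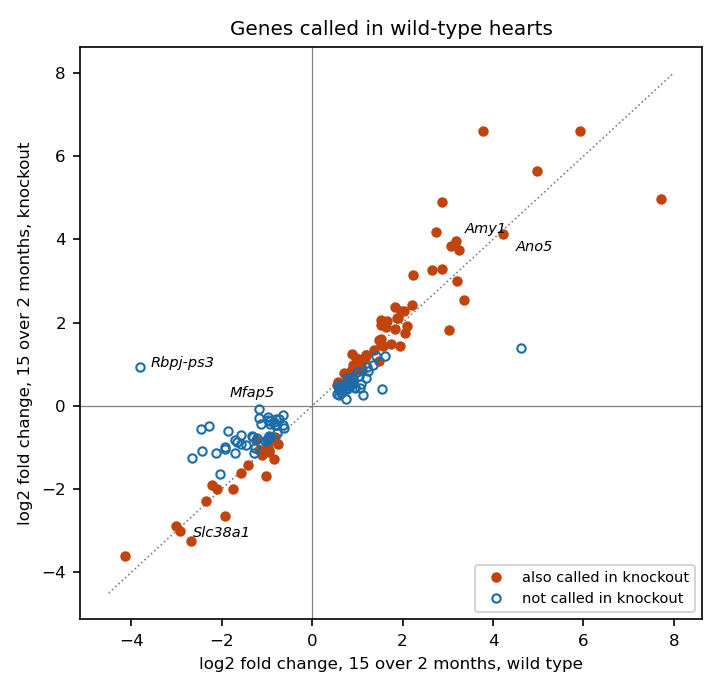
Log2 fold change of 15 over 2 months in wild-type (horizontal) and knockout hearts (vertical) for the 161 genes called in wild type, filled where also called in knockout hearts, with the line of equal change dotted. All but Rbpj-ps3 lie on the same side of 0 in both genotypes, and the point farthest right is Dpp6, whose fitted value of 7.72 rests on 0 counts in young wild-type hearts and depends on the prior count.

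The same 29 genes were called under all of 24 settings, which include leaving out each of the 14 libraries, other scalings and tests, a replicate block, and the length slope or atrial score as a covariate. They comprise 22 risers and 7 falls. Of the risers described above they include Ano5, Kcnk1, Pde11a, Prlr, Amy1, Acsm5, Cds1, Abca12, Cdh4, Cdh22, Lgi2 and Trim54. The 7 falls were Slc38a1, Ddc, Dbh, Adamtsl2, Tceal8, Armcx3 and Mfap5. None of the 29 is on the sarcomere, respiratory chain, ribosome or clock lists. With only 29 such genes among the 15528 tested, this absence says nothing about those lists.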

How the data were processed

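RNA was measured in whole hearts of wild-type mice at 2 months (n = 3) and 15 months (n = 4), with 3 and 4 knockout hearts beside them. Total RNA was depleted of ribosomal RNA and turned into stranded libraries, per the labels' protocols. The deposited values are unnormalised read counts per gene. Per the submitters' processing notes, the authors used cutadapt 1.16, STAR 2.7.3a, featureCounts 1.6.3, DESeq2 1.26.0 and the build GRCm38. Which annotation release was counted, whether strand was used and how multiply mapping reads were treated is not given in the sources used here, so reads of overlapping genes and of near copies may have been shared or lost. The table held 0 columns without a sample. Symbols, positions and exon lengths came from GENCODE M21, which held 55227 of 55487 identifiers, and promoter sequences from RefSeq (GRCm38.p6).

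Counts were filtered with filterByExpr (minimum count 10, minimum total 15), scaled with TMM and fitted with edgeR 4.0.16 in R 4.3.3, by a robust quasi-likelihood model with 1 mean per group over all 14 libraries. P-values were adjusted by Benjamini-Hochberg over 15528 genes at 0.05, without a fold minimum. SE is the log2 fold change divided by the square root of F. The script was tested on simulated data. Intervals (95%, exact) and the floor of 3 counts cover counting error only, since reads carry no molecular identifiers. Named genes are the 12 largest rises and 12 largest falls past the threshold with a mean of at least 1 CPM and no overlap, up to 4 called members of a list (2 of smallest p where none passed), and a fixed set of 25 genes. Predicted models, pseudogenes, small RNAs, ribosomal proteins and histones were left out of the largest rises and falls. The 67 lists have 1747 entries for 1662 genes, of which 1534 were tested. Genes withheld for evaluation are not reported here. The lists and their members were chosen with earlier results of these data known, so the number of called members is not evidence about a list. Alternatives were RLE scaling, no filter, a mean CPM of at least 1, DESeq2 1.42.0, limma 3.58.1 with voom, only the groups compared, a replicate block, no mitochondrial genes, the length slope or atrial score as a covariate, an adjusted p of 0.1, a log2 fold change of at least 1, and leaving out each library.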

Additional observations from a re-analysis of the deposited data

Results flagged for a closer look

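Among the genes described, 100 were looked at in the 4 hearts at 15 months for a highest or lowest value whose gap to the nearest heart exceeded Dixon's 95% limit. Chance alone gives such a gap in about 1 of 20 groups, and 6 were found. Kcnc1 was at 6.88 CPM in heart 2, against 2.37 to 3.02 CPM in the others. Fbn2 was at 0.529 CPM in heart 2, against 0.390 to 0.413 CPM. Krt10 was at 0.570 CPM in heart 2, below the others at 0.848 to 0.877 CPM. Pnmt was at 0.130 CPM in heart 3, below the others at 0.405 to 0.413 CPM. Sirt1 was at 14.9 CPM in heart 3, against 12.9 to 13.1 CPM. mt-Co1 was at 95617 CPM in heart 3, below 120755 to 125921 CPM in the others.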

How the results depend on the processing

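Counts of calls moved with the settings, and no called gene turned its direction. Genes higher in wild-type hearts (95) numbered 554 by DESeq2, 337 at an adjusted p of 0.1, 59 with the atrial score, 58 with a log2 fold change of at least 1, 43 with only the groups compared and 34 with the replicate block. Genes lower (66) numbered 546, 369, 25, 42, 43 and 21 in the same order, and 117 with no filter. Genes higher in knockout hearts (166) numbered 790 by DESeq2, 709 at 0.1, 92 with the atrial score, 54 with the length slope, 85 with only the groups compared and 39 with the block, and genes lower (183) numbered 832, 907, 82, 32, 49 and 31, with 334 by voom and 104 with the fold minimum. The difference between genotypes gave 1 gene by DESeq2, and no value with only the groups compared. Leaving out 1 library gave 24 to 340 and 11 to 456 genes in wild type, 29 to 1600 and 20 to 1923 in knockout hearts, and 0 to 1 for the difference. The equal replicate numbers do not pair the hearts, since the labels give them no meaning and same-numbered deviations correlated at 0.11, 0.32 and −0.12. Log2 fold changes that turned sign all belonged to genes that were not called. With the length slope these were C4b (−0.0389), Sirt3 (0.208) and mt-Co1 (0.0731), and by voom Jchain (0.434). Leaving out 1 library, the value ran from −1.12 to 0.427 for Col1a1, from −0.561 to 0.171 for Igf1 and from −0.738 to 0.149 for Postn, each highest without heart 1 at 2 months. It ran from −1.20 to 0.0336 for Cdkn1a, from −0.701 to 0.0196 for Hmox1, from −0.932 to 1.46 for Jchain, from −1.09 to 0.522 for Ppargc1a and from −0.238 to 0.0369 for Sirt3, each highest without heart 3 at 2 months. Of 67 lists, 37 turned the sign of their median under some alternative. No scaling moved the median of all genes by over 0.1. With 3 and 4 hearts, a change that missed the threshold is not shown to be absent. The cause of these moves was not tested.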
